A study of Mus musculus with 74 samples.

Results

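The 9 steroid-metabolizing enzymes of the liver, chosen by name, were followed through RNA sequencing and chromatin immunoprecipitation sequencing (ChIP-seq) of mouse livers lacking a corepressor subunit or the receptor PPARα. The members were Hsd3b2, Hsd3b3, Hsd3b5, Akr1c6, Akr1c18, Akr1d1, Cyp17a1, Cyp7b1 and Hsd11b1, which are 9 of the 14583 genes of the RNA table, and the ChIP-seq peaks whose nearest gene in the authors' tables is one of them, from 33 to 128 peaks per table. The RNA series held 4 Gps2 liver knockout (LKO) and 4 wild-type (WT) livers. The ChIP-seq tables held Gps2 LKO, Ncor LKO, Smrt LKO and Ppara KO livers, each with WT livers of its own set, as 1 to 3 samples per group. All mice were on a C57BL/6 background, on chow and 8 to 12 weeks old, and the study's methods state that they were male. For the histone marks of the Gps2 set the deposited column names also say fed. The other column names give no feeding state.

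Gps2 LKO mice carried floxed Gps2 alleles and a Cre driven by the albumin promoter, so the deletion was confined by design to hepatocytes, and their WT controls were floxed littermates without Cre. The Ncor and Smrt LKO livers were also liver-specific deletions, from lines made elsewhere, and the Ppara KO (B6;129S4-Ppara tm1Gonz, per the methods) lacked the receptor in the whole body. Each ChIP-seq sample pooled 2 to 4 immunoprecipitations, and the labels do not say which samples share an animal, so the p-values measure the spread between these samples. In bulk liver, fewer cells of a type and less RNA per cell cannot be told apart.

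Steroid hormones reaching the liver are oxidised or reduced at fixed positions of the ring system and then conjugated for excretion, and cholesterol is turned into bile acids by an overlapping set of cytochromes P450 and reductases. Several of these enzymes differ between male and female mouse liver, a difference set by the pattern of pituitary growth hormone through STAT5 and BCL6. GPS2 is a subunit of the corepressor complex built on NCOR and SMRT, and PPARα is the fatty acid receptor that binds DNA with RXR at direct repeats of the AGGTCA half-site. H3K27ac marks active enhancers and promoters, and H3K4me3 marks active promoters.

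Of the 9 members, 3 had higher and 4 had lower mRNA in Gps2 LKO than in WT liver, and Akr1c6 and Hsd11b1 did not pass the test. The background was 23.4% of 12220 tested genes higher and 21.4% lower, by edgeR's quasi-likelihood test at a Benjamini-Hochberg adjusted p under 0.05. Levels are in counts-per-million (CPM), scaled by TMM, and differences are log2 fold changes of LKO over WT.

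Akr1c18, the aldo-keto reductase that inactivates progesterone, had the largest change. Its mRNA was at 0.31, 0.475, 0.698 and 0.955 CPM in the 4 WT livers and at 15.7, 12.4, 12.8 and 13.7 CPM in the 4 LKO livers. It thus went from close to absent to readily measured in every LKO liver, a 22.1-fold difference (log2 fold change 4.47, SE 0.2, adjusted p = 9.59e-10). Cyp17a1, the steroid hydroxylase and lyase that leads from progestins to androgens, was at 12.6, 11.8, 12.1 and 12.2 CPM in WT against 56.2, 47.2, 45 and 51.3 CPM in LKO livers. The groups were far apart and the WT livers nearly identical, with a 4.1-fold difference (log2 fold change 2.04, SE 0.09, adjusted p = 6.28e-10). Akr1d1, the reductase that saturates the first ring of bile acid intermediates and of steroid hormones, was at 161, 160, 170 and 178 CPM in WT against 231, 235, 227 and 219 CPM in LKO livers. This was a smaller, 1.36-fold rise without overlap between groups (log2 fold change 0.45, SE 0.06, adjusted p = 5.12e-05).

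Cyp7b1, the oxysterol hydroxylase of the alternative bile acid pathway, had the largest fall. Its mRNA was at 491, 491, 503 and 525 CPM in WT against 86, 74.8, 76.9 and 84.9 CPM in LKO livers. WT levels were 6.23-fold those of LKO, and no sample of either group came near the other (log2 fold change -2.64, SE 0.06, adjusted p = 1.64e-12). Hsd3b5, a reductase of this dehydrogenase family known for its expression in male liver, was at 238, 228, 237 and 241 CPM in WT against 89.6, 75.8, 81.3 and 91.5 CPM in LKO livers. The WT level was 2.79-fold the LKO level (log2 fold change -1.48, SE 0.07, adjusted p = 1.4e-09). Its relatives Hsd3b2 and Hsd3b3 also fell, but less. Hsd3b2 was at 33.7, 33.3, 30.7 and 34.9 CPM in WT against 21.1, 25.7, 17.9 and 19.9 CPM in LKO livers (log2 fold change -0.64, SE 0.1, adjusted p = 0.000277). Hsd3b3 was at 148, 153, 137 and 143 CPM in WT against 122, 111, 101 and 112 CPM in LKO livers, again without overlap (log2 fold change -0.38, SE 0.07, adjusted p = 0.000626). The Hsd3b and the Akr1c genes are clusters of near-identical copies, so how reads were split among them is uncertain.

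The remaining pair showed no called difference. Akr1c6, an aldo-keto reductase acting on androgens, was at 1140, 1100, 1130 and 1180 CPM in WT against 1360, 1020, 1120 and 1350 CPM in LKO livers (log2 fold change 0.09, SE 0.08, adjusted p = 0.386). Hsd11b1, the reductase that regenerates active glucocorticoid, was at 483, 469, 462 and 484 CPM in WT against 499, 415, 407 and 504 CPM in LKO livers (log2 fold change -0.06, SE 0.07, adjusted p = 0.552). In both, the LKO livers spread around the WT values, with samples on either side. These calls depended on scaling. With total counts in place of TMM, the median of all genes moved by -0.18, the share of calls that were higher went from 52.1% to 25.2%, Akr1c6 turned to -0.09 and Hsd11b1 to -0.24, the latter then called lower. With the trend on exon length removed, Akr1c6 was at -0.14 and Hsd11b1 at -0.27, again called lower, and without LKO sample 2 Akr1c6 was called higher at 0.14. The calls of the other 7 members were the same under all alternatives tried. An exact two-sided permutation test on the log2 CPM, with an offset added, of each of these 7 genes gave p = 0.0286. This is the smallest that 4 against 4 samples allow.

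**Figure D1:**
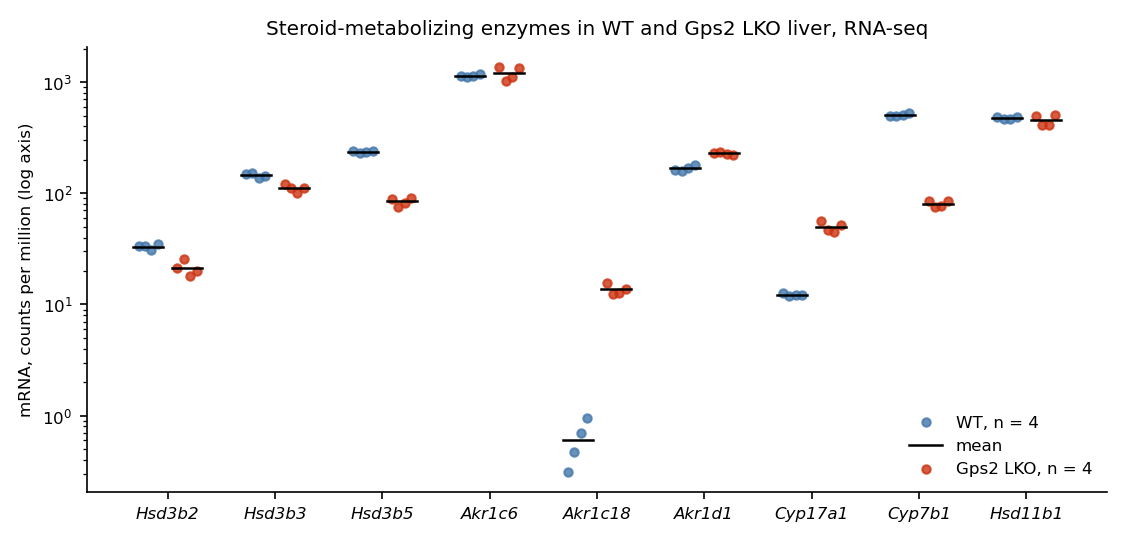
mRNA of the 9 members in each WT and Gps2 LKO liver, in CPM on a log axis, with 1 point per liver and the group mean as a line. Akr1c18, Cyp17a1 and Akr1d1 lie higher in LKO, Cyp7b1, Hsd3b5, Hsd3b2 and Hsd3b3 lower, and the points of Akr1c6 and Hsd11b1 overlap.

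Per length of exon, the order of the members also changed. In WT livers the highest mean was that of Akr1c6 at 836 CPM per kilobase of exon (RPKM), followed by Hsd11b1 at 328, Cyp7b1 at 232 and Hsd3b5 at 147 RPKM. Cyp17a1 at 6.6 and Akr1c18 at 0.508 RPKM were the lowest. In LKO livers Cyp7b1 had dropped to 37.2 RPKM, below Akr1d1 at 84.4, Hsd3b3 at 61 and Hsd3b5 at 52.6 RPKM, and Cyp17a1 at 27.1 RPKM was above Hsd3b2 at 11.8 and Akr1c18 at 11.4 RPKM.

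Of 60 other genes of steroid, bile acid and conjugation enzymes, 41 were tested, and 13 were higher, 19 lower and 9 not called in LKO livers. Their median log2 fold change was -0.10 against 0.03 over all genes tested. In the family of Akr1c18, Akr1c19 went from 97.3 to 126 CPM and Akr1c14, which reduces a ketone on the first ring, from 578 to 442 CPM. Among genes past a log2 fold change of 1, Cyp46a1, a cholesterol hydroxylase, went from 2.41 to 7.41 CPM and the glucuronosyltransferase Ugt2b37 from 5.57 to 12.2 CPM. Hsd3b1 had 1 read in all WT livers and 83 in LKO livers, a ratio of 89.3 with a counting interval of 15.6 to 3570. The sulfotransferase Sult2a2 had 0 reads in WT against 78 in LKO livers, at least 28-fold higher against a floor of 3 reads over the group. Those that fell past 1 were Cyp8b1, which sets the share of cholic acid, from 280 to 138 CPM, the sulfotransferase Sult2a8 from 1090 to 442 CPM, Ugt2b38 from 30.7 to 13.4 CPM and Cyp21a1 from 1.28 to 0.216 CPM. Cyp7a1, the rate-limiting enzyme of the classical bile acid pathway, went from 367 to 266 CPM (log2 fold change -0.46), while Cyp27a1, which opens the alternative pathway, went from 513 to 597 CPM (log2 fold change 0.22).

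Genes that differ by sex in mouse liver changed as well. Of 19 genes higher in male liver, 0 were higher and 17 lower in LKO, with a median log2 fold change of -1. Mup7, a urinary protein gene, went from 394 to 52.7 CPM, Elovl3, a fatty acid elongase, from 53.1 to 8.4 CPM, and Bcl6, the repressor of female-type genes, from 86.7 to 24 CPM. Of the female-liver list, 17 genes other than Cyp17a1 were tested, and 17 were higher, with a median of 3.98. Both lists were chosen with earlier results of these data known, and the female list holds Cyp4a14, which the study counts as a PPARα target. That list also holds Sult2a2 and Trim24, the gene lying beyond the downstream peaks of Akr1d1, which went from 32.2 to 54.3 CPM (log2 fold change 0.75, adjusted p = 1.35e-06). The 5 genes whose log2 CPM followed Akr1c18 most closely over the 8 livers were Pfkfb1, Ak4, Cyp2a4, Cadm1 and Emp2, with Pearson r from 0.995 to 0.999 among 8560 genes. These r reflect mainly the split between WT and LKO livers, which all 5 share with Akr1c18.

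Y-linked transcripts were present in all 8 RNA libraries, with Ddx3y at 76.8 to 86.5 CPM in WT and 76.2 to 95.5 CPM in LKO, and Xist did not exceed 15 reads in any, so all 8 libraries carried the signal of males. Among the Y-linked genes, Kdm5d (log2 fold change -0.42, adjusted p = 0.00821) and Uty (-0.26, adjusted p = 0.0353) were lower in LKO, and Ddx3y and Eif2s3y were not called. Gps2 itself was at 15.1 to 16.7 CPM in WT against 9.16 to 12.9 CPM in LKO livers (log2 fold change -0.53, SE 0.11, adjusted p = 0.0021). The RNA libraries held 13194385 to 20086127 counts, of which the members took 0.282% to 0.298% in WT against 0.196% to 0.228% in LKO livers. Markers of other cells moved too. All 6 stellate cell markers were higher in LKO, with a summed level of 150 to 159 CPM in WT against 272 to 291 CPM in LKO livers. Of the other lists, 5 of 6 Kupffer cell, 3 of 5 bile duct and 2 of 5 endothelial markers were higher and 0 lower. Of 6 hepatocyte markers 4 were higher and 0 lower, and the pericentral and periportal hepatocyte lists each had 3 higher and 2 lower of 7. Of 7 markers of steroid-making cells of adrenal or gonad, only Star, Cyp21a1 and Hsd3b1 were in the table. Of these, Hsd3b1 was higher and the other 2 were lower. Their summed levels, 2.44 to 3.72 CPM in WT against 2.29 to 3.37 CPM in LKO livers, thus mix opposite changes. The part of these lists in the members' changes was not tested.

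To see where the chromatin of these genes differed, H3K27ac and H3K4me3 were compared between 2 Gps2 LKO and 2 WT livers. All peak values below are tags per 10-million total tags, and distances are from the nearest annotated transcription start site (TSS) in the mm9 mouse genome build. Of 42 member peaks tested for H3K27ac, 2 were higher and 1 lower in LKO, against a background of 1.21% higher and 0.212% lower. The peak that spans Cyp17a1 (chr19:46741011-46751809; the gene lies at chr19:46741655-46747464 on the minus strand) had 504 and 489 tags in WT against 765 and 816 in LKO livers. LKO samples were both above WT (log2 fold change 0.67, SE 0.08, adjusted p = 0.0145). An intergenic peak 88 kb from the Akr1d1 TSS (chr6:37566465-37569944), past the end of the gene, had 31.6 and 36.1 tags in WT against 74.5 and 89.3 in LKO livers, with both LKO samples above both WT samples (log2 fold change 1.27, SE 0.17, adjusted p = 0.0217). A peak 54.1 kb upstream of Cyp7b1 (chr3:18194584-18200246) had 259 and 200 tags in WT against 85.4 and 50.3 in LKO livers, with both LKO samples lower (log2 fold change -1.76, SE 0.23, adjusted p = 0.0199). None of these 3 H3K27ac calls passed without WT sample 1 (log2 fold changes 0.69, 1.18 and -1.56) or without WT sample 2 (0.65, 1.38 and -1.94). Akr1c18 had no tested H3K27ac peak.

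H3K4me3 was tested at 10 member peaks, of which 1 was higher and 2 lower, against 0.798% higher and 0.118% lower in the background. The Cyp17a1 peak had 124 and 106 tags in WT against 281 and 298 in LKO livers, again higher in both LKO samples, and the call held under every alternative (log2 fold change 1.33, SE 0.14, adjusted p = 0.000314). The peak at the Hsd3b5 TSS (chr3:98447252-98452237) had 502 and 475 tags in WT against 259 and 152 in LKO livers, the LKO samples being lower (log2 fold change -1.25, SE 0.17, adjusted p = 0.00245), a call lost with DESeq2 (adjusted p = 0.0703) and with all peaks of the table tested (adjusted p = 0.0947). Over the Cyp7b1 promoter the values were 1020 and 1070 tags in WT against 816 and 561 in LKO livers, also lower (log2 fold change -0.60, SE 0.12, adjusted p = 0.0346), but this call was also lost with DESeq2 (adjusted p = 0.83), with TMM, with all peaks, and without WT sample 1 (-0.63), WT sample 2 (-0.56) or LKO sample 2 (-0.35). For H3K27ac, the same Hsd3b5 peak had 673 and 641 tags in WT against 518 and 134 in LKO livers, and the Cyp7b1 promoter peak 1830 and 1660 in WT against 1320 and 593 in LKO livers. Neither passed the test (adjusted p = 0.371 and 0.224), and LKO sample 2 was the lower of the LKO samples at both. Leaving out LKO sample 1 gave 10 member H3K27ac peaks higher and 9 lower.

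**Figure D2:**
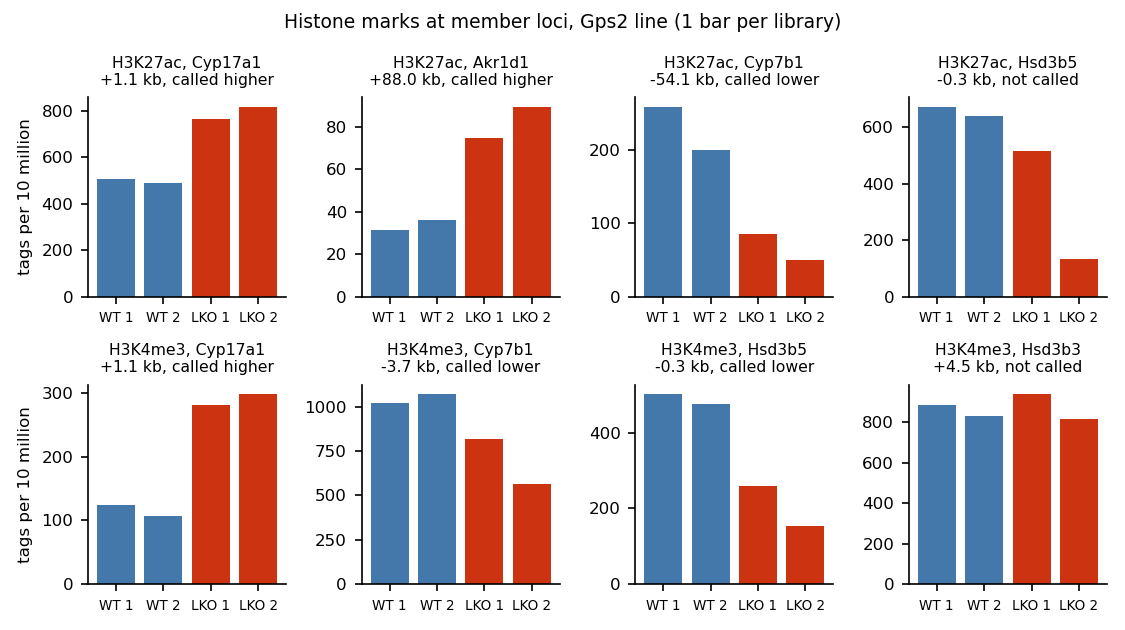
H3K27ac (upper panels) and H3K4me3 (lower panels) at member peaks of the Gps2 set, in tags per 10-million total tags, with 1 bar per WT (blue) or LKO (red) sample and the distance from the TSS in each title. Both LKO bars are higher at Cyp17a1 and at the downstream Akr1d1 peak and lower at the Cyp7b1 and Hsd3b5 peaks, where LKO sample 2 is the lowest, while the Hsd3b3 bars are level.

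PPARα binding was measured in 3 Gps2 LKO and 3 WT livers. The 3 WT samples differed by less than the sampling noise and entered the test as 1 summed sample, so the spread behind these p-values comes from the LKO samples alone. Of 128 member peaks, 44 were higher and 2 lower in LKO, which is 34.4% and 1.56%, against 21.5% and 0.147% of all peaks. The median log2 fold change of the members was 0.69 and that of all peaks 0.62, so most of the members' rise was shared by the whole table. The share of tags inside peaks was 19.2% to 21.9% in WT against 28.9% to 32.1% in LKO samples. TMM scaling, which centres the peaks, moved the median of all peaks by -0.60. The share of calls that were higher went from 99.3% to 55.4%. Under TMM 7 of 128 member peaks were higher and 2 lower, beside 553 higher and 445 lower of all 102519 peaks. By gene, 17 of 32 Akr1d1 peaks were higher, 6 of 11 at Hsd3b3, 5 of 16 at Akr1c6, 5 of 9 at Cyp17a1, 5 of 11 at Hsd11b1, 3 of 4 at Akr1c18, 1 of 9 at Hsd3b2, 1 of 15 at Hsd3b5 and 1 of 21 at Cyp7b1, where both lower peaks lay. With the WT samples entered separately 62 were higher and 2 lower, and DESeq2 called 12 higher and 0 lower. Without WT sample 1 there were 29 higher peaks, and without LKO sample 3 there were 24.

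The peaks on which these results turn are given here as mm9 reference sequence, plus strand, 5′ to 3′, because they are the called Akr1d1 peaks with the highest log2 fold changes, the called lower Cyp7b1 peaks and the called promoter peaks of Akr1c18 and Cyp17a1. Capitals mark an AGGTCA half-site on either strand, or, where there is none, a TTCNNNGAA motif, the core of a STAT site.
Akr1d1, chr6:37567042-37567228: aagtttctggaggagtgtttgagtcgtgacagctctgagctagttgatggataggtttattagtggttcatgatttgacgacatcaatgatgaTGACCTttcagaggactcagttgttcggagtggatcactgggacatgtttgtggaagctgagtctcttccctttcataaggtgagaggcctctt
Akr1d1, chr6:37567552-37567800: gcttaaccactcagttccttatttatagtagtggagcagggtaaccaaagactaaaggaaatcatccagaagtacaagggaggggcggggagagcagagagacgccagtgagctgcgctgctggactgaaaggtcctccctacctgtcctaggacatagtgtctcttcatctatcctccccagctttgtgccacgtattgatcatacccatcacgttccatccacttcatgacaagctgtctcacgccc
Akr1c18, chr13:4149882-4150042: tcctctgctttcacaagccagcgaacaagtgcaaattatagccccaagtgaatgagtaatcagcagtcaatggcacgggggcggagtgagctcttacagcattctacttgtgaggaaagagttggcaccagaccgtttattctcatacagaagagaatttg
Cyp17a1, chr19:46747719-46747890: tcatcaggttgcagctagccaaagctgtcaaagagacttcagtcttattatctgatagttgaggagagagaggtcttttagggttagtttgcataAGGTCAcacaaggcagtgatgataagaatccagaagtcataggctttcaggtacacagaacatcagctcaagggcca
Cyp7b1, chr3:18146325-18146515: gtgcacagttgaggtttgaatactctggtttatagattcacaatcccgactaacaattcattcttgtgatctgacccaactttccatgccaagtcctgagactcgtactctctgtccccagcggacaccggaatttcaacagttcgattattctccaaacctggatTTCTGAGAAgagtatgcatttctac
Cyp7b1, chr3:18196080-18196272: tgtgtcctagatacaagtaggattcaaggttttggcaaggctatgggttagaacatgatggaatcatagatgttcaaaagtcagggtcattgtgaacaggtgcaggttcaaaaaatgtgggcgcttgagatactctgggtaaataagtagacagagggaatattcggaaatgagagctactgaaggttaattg

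The first pair lies downstream of Akr1d1, at 87.0 and 87.5 kb, the third at the Akr1c18 TSS, the fourth 0.314 kb upstream of Cyp17a1 and the last pair 3.08 and 52.8 kb upstream of Cyp7b1. No direct repeat AGGNCANAGGNCA was found in any of these intervals. In 200 bp windows at the centres of all peaks, searched on both strands, this repeat was in 2.28% of 102417 peaks and in 1 of 128 member peaks (0.781%). The half-site AGGTCA was in 31.8% of all and 31.2% of member peaks, and TTCNNNGAA in 6.49% of all and 8.59% of member peaks, so the members' peaks were close to the rest of the table in the letters searched. An AGGTCA inside a direct repeat counts in both searches.

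At Akr1d1 (chr6:37480173-37518815, plus strand), the rise of PPARα was greatest beyond the gene. The peak at 87.5 kb had 2.53, 10.4 and 15.8 tags in WT against 42.5, 58.7 and 63.3 in LKO livers, so the LKO samples were all far above WT (log2 fold change 2.49, adjusted p = 3.92e-10). The adjacent peak at 87.0 kb held 3 tags over all WT samples and 57 over the LKO samples, a ratio of 14.3 with a counting interval of 4.65 to 71.3. At 151 kb the values were 12.7, 3.8 and 9.02 in WT against 41.4, 39.8 and 38.1 in LKO livers (log2 fold change 2.28). These peaks rose to levels that no WT sample reached. At 71.0 kb the values were 25.3, 36.1 and 20.3 in WT against 94.2, 92.8 and 81.5 in LKO livers (log2 fold change 1.67), and 19.2 kb upstream of the TSS they were 20.2, 30.4 and 19.2 in WT against 60.9, 90.9 and 93.8 in LKO livers (log2 fold change 1.80). Under TMM scaling the called Akr1d1 peaks were these 5 and the peak at 89.0 kb, with log2 fold changes of 1.06 to 3.16, and these 6 were called under every alternative. Past the 3′ end of the gene, 13 of 17 peaks were higher with a median of 1.40, and in the rest of the locus 4 of 15 with a median of 0.66. The H3K27ac peak 88 kb from the TSS covers 3 PPARα peaks, all of them higher.

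**Figure D3:**
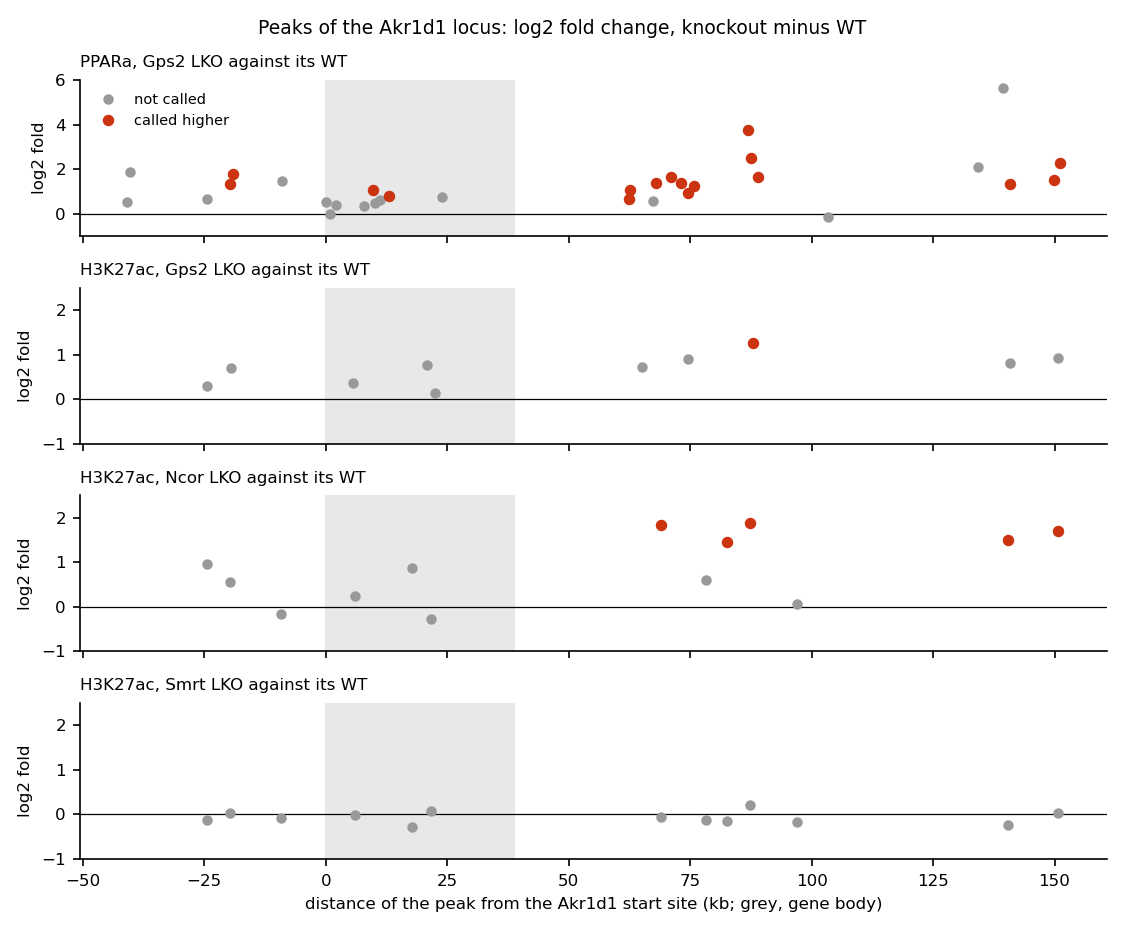
log2 fold changes of the tested Akr1d1 peaks, plotted against distance from the TSS in kb, for PPARα in Gps2 LKO and for H3K27ac in the Gps2, Ncor and Smrt LKO livers, with called peaks in red and the gene body shaded. For PPARα in Gps2 LKO the median of the peaks beyond the gene is 1.4, against 0.66 in the rest of the locus. For H3K27ac these medians are 0.89 and 0.36 in Gps2 LKO and 1.49 and 0.4 in Ncor LKO. The ranges of the peaks beyond the gene and in the rest overlap for PPARα and for H3K27ac in both Gps2 and Ncor LKO. The Smrt LKO medians are near 0.

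At the other genes that rose, PPARα was also higher. At Akr1c18 (chr13:4131861-4149900, minus strand), the peak at the TSS had 0, 2.85 and 1.13 tags in WT against 5.75, 7.58 and 10.6 in LKO livers (log2 fold change 2.45, adjusted p = 0.0217), and a peak 6.99 kb into the gene had 13.9, 17.1 and 15.8 in WT against 46, 36.9 and 41 in LKO livers (log2 fold change 1.38, adjusted p = 0.000711). All LKO samples were above all WT samples at both, though the first rests on few tags. At the Cyp17a1 promoter, PPARα tags were 65.8, 70.3 and 53 in WT against 107, 118 and 93.8 in LKO livers (log2 fold change 0.74, adjusted p = 0.021), close to the table's median rise. At Hsd11b1, whose mRNA was not called, the peak 9.29 kb upstream had 11.4, 13.3 and 9.02 tags in WT against 57.5, 35 and 39.3 in LKO livers (log2 fold change 1.92, adjusted p = 4.82e-06). It was called under TMM as well (log2 fold change 1.31), while the Akr1c18 and Cyp17a1 peaks were not. At Hsd3b3, whose mRNA was lower, the peak 1.34 kb upstream was higher, with 62, 51.3 and 55.2 tags in WT against 120, 107 and 116 in LKO livers (log2 fold change 1.03).

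PPARα was lower only near Cyp7b1 (chr3:17971950-18143338, minus strand). The peak 52.8 kb upstream had 20.2, 28.5 and 20.3 tags in WT against 13.8, 4.74 and 4.69 in LKO livers, without overlap (log2 fold change -1.73, adjusted p = 0.000574). The peak 3.08 kb upstream had 31.6, 56 and 45.1 in WT against 14.9, 42.6 and 24 in LKO livers, where the groups overlapped (log2 fold change -0.73, adjusted p = 0.0423). Under TMM scaling both stayed called, at -2.33 and -1.33, and with DESeq2 neither was. The first lies inside the H3K27ac peak that fell. At the Hsd3b5 TSS, PPARα had 17.7, 25.6 and 28.2 tags in WT against 14.9, 24.6 and 22.9 in LKO livers, and the groups overlapped.

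**Figure D4:**
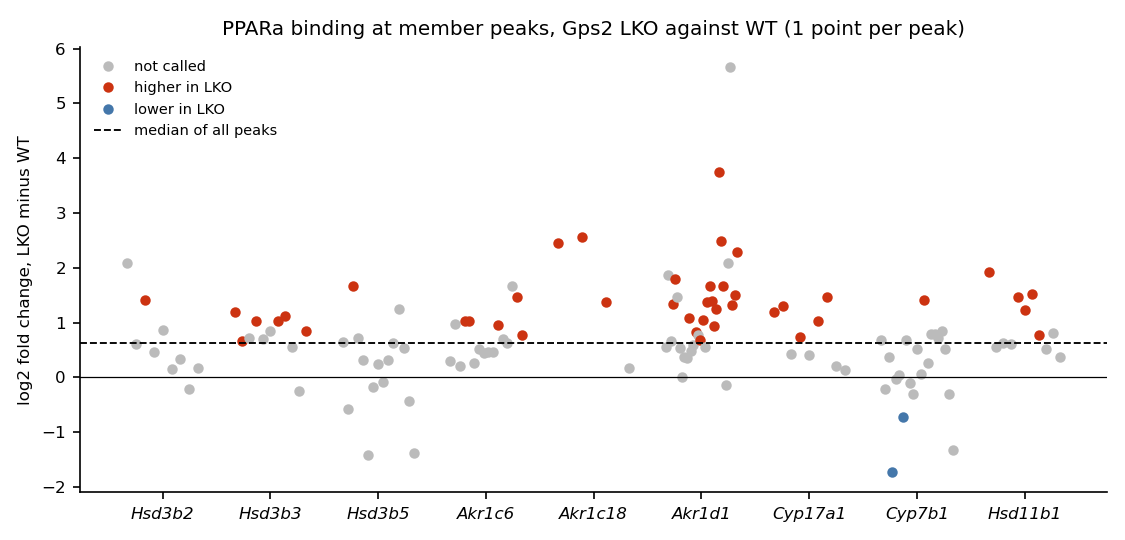
log2 fold change of PPARα tags, Gps2 LKO minus WT, at each of the 128 member peaks, by gene and in order of position, with called peaks in red (higher) or blue (lower) and the median of all peaks of the table, 0.62, as a dashed line. Akr1d1 holds most of the red points far above that line, and both blue points are at Cyp7b1. The grey point at 5.66 had 0 tags in all WT samples and was not called.

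Binding of NCOR, the scaffold of the complex, was compared in 3 Gps2 LKO and 3 WT livers. By edgeR 0 of 96 member peaks were called in either direction (background 0.0124% higher, 0.00495% lower), 3 higher and 3 lower had an unadjusted p under 0.05 (1.78% and 1.01% of all peaks), and DESeq2 called 0. Levels at a few sites were as follows. At 87.6 kb from the Akr1d1 TSS, NCOR had 3.62, 5.47 and 3.48 tags in WT against 16, 30.8 and 5.97 in LKO livers, and 52.7 kb upstream of Cyp7b1 it had 21.2, 26.3 and 15.7 in WT against 6.1, 5.65 and 4.88 in LKO livers. The LKO samples were above WT at the former and below at the latter, short of the test. Both sites were picked after their values were seen. Over all member peaks the LKO samples were all above WT at 2 and all below at 6, and the groups overlapped at 88. These counts have no share over all peaks beside them, so no difference at the members is read from them.

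GPS2 and RNA polymerase II were each measured in 1 Gps2 LKO and 1 WT sample, so these differences have no replicate check, and intervals cover counting error only. GPS2 tags were lower by a log2 ratio of at least 1 at 73 of 73 member peaks and higher at 0, against 99.5% lower and 0.102% higher of all peaks, and the exact Poisson intervals were separate at 59. Over all Akr1d1 peaks together GPS2 went from 410 tags (378 to 443) in WT to 10.1 (5.68 to 16.7) in LKO. The loss of GPS2 signal was thus as wide at these genes as in the whole table. With tags scaled by the median ratio over all peaks, 20 member peaks were higher and 16 lower. These relative counts rest on 0 to 4 tags per member peak in the single LKO library, so no gain of GPS2 is read from them. Polymerase II was higher at 5 and lower at 4 of 33 member peaks, against 7.57% and 5.07% of all peaks, and of these 9 only 1 higher peak, at Cyp17a1, and 1 lower peak, at Akr1d1, had separate counting intervals. Over all Cyp17a1 peaks together it went from 138 (118 to 161) to 228 (202 to 257), and over Hsd3b3 from 97.8 (80.7 to 117) to 57.2 (44.4 to 72.5), both beyond counting error. Hsd3b5 and Akr1c18 had no polymerase II peak in the table.

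Loss of NCOR was studied in 3 Ncor LKO and 3 WT livers. H3K27ac was higher at 7 and lower at 0 of 76 member peaks (background 2.32% and 0.801%), and 5 of the 7 were Akr1d1 peaks past the end of the gene. The peak at 69.1 kb (chr6:37541570-37556938) had 287, 234 and 280 tags in WT against 556, 1250 and 1040 in LKO livers (log2 fold change 1.83, SE 0.24, adjusted p = 0.00514). The peak at 87.4 kb (chr6:37564097-37571054), over the one that rose in Gps2 LKO, had 46.4, 48.4 and 54.3 tags in WT against 106, 232 and 210 in LKO livers (log2 fold change 1.88, SE 0.25, adjusted p = 0.00539). All LKO samples were above WT at both, with LKO sample 1 the lowest of them, and both were called under every alternative. All 5 are intergenic in the annotation. The other Akr1d1 peaks, at 82.5, 140 and 151 kb, had log2 fold changes of 1.45, 1.49 and 1.69. Past the gene end 5 of 7 tested peaks were higher with a median of 1.49, and 0 of 6 in the rest of the locus with a median of 0.40. A peak 7.53 kb upstream of Cyp17a1 had 18.8, 20.9 and 58.4 tags in WT against 130, 136 and 126 in LKO livers, WT sample 3 being the highest of its group (log2 fold change 1.99, SE 0.35, adjusted p = 0.0161), and one 29.8 kb upstream of Akr1c6 had a log2 fold change of 0.53 (adjusted p = 0.0286). The peaks at the Hsd3b5 TSS (819, 511 and 478 in WT, 419, 512 and 358 in LKO) and the Cyp7b1 promoter (1840, 1650 and 1010 in WT, 603, 1320 and 1080 in LKO) were not called. There were 2 higher peaks without WT sample 1 or 2, 4 without WT sample 3 and 3 without LKO sample 3.

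In the same Ncor comparison, GPS2 binding was lower at 1 and higher at 0 of 74 member peaks (background 0.0338% and 0%), while 43 were lower at an unadjusted p under 0.05, as were 33.9% of all peaks. The median of the members was -1.44 and that of all peaks -1.12. At 103 kb from the Akr1d1 TSS GPS2 had 84.6, 42.4 and 19.8 tags in WT against 7.89, 2.36 and 6.75 in LKO livers, all LKO samples being lower (log2 fold change -3.08, SE 0.67, adjusted p = 0.032). The WT samples differed widely, with 8.23%, 7.82% and 3.07% of tags in peaks against 2.45% to 3.15% in LKO. TMM scaling moved the median of all peaks by 1.09 and the share of calls that were higher from 0% to 79.5%, and the count of lower member peaks was 60 without WT sample 3 and 0 without any other single library. PPARα was higher at 1 and lower at 0 of 109 member peaks (background 0.151% and 0.0453%). This peak, 6.92 kb upstream of Cyp17a1, had 1.85, 3.74 and 3.33 tags in WT against 13.1, 12.8 and 19.5 in LKO livers, low in all WT samples (log2 fold change 2.30, SE 0.56, adjusted p = 0.0326), and the count was 3 higher and 4 lower without WT sample 3 and 0 without any other single library. At 87.5 kb from the Akr1d1 TSS PPARα had 27.1, 37.9 and 12.4 tags in WT against 43.3, 74.7 and 116 in LKO livers and was not called.

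Loss of SMRT, the other scaffold, was studied by H3K27ac in 3 Smrt LKO and 3 WT livers. By edgeR 0 of 76 member peaks were called (background 0% in both directions), with 0 higher and 1 lower at an unadjusted p under 0.05 (3.32% and 2.61% of all peaks) and 0 by DESeq2. The Akr1d1 peak at 69.1 kb had 870, 1030 and 1240 tags in WT against 652, 1340 and 1010 in LKO livers, the groups overlapping. When the Ncor and the Smrt effect were compared in a single model, 1 of 76 member peaks was higher and 0 lower (background 0.33% and 0.0959%). This was the same Akr1d1 peak, with a difference of 1.89 between the log2 fold changes (SE 0.38, adjusted p = 0.0486). That difference starts from unlike controls, since the mean WT level was 267 tags in the Ncor set and 1050 in the Smrt set, and it was lost in 10 of 12 fits that left out a library.

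The WT samples of the Ncor and Smrt sets differed at several members, and sex-linked signal differed with them. All 6 libraries of the Smrt set had 0 tags in the 5 chromosome Y peaks and 266 to 297 tags per 10-million at Xist, and those of the Ncor set 306 to 371 on chromosome Y and 4.55 to 8.54 at Xist. This goes against the methods, which state that the mice were male, and line, batch and sex-linked signal cannot be told apart. H3K27ac at the Hsd3b5 TSS was 819, 511 and 478 in the Ncor WT and 60.7, 42.9 and 14.6 in the Smrt WT samples, a 15.3-fold difference. The Cyp7b1 promoter was at 1840, 1650 and 1010 in the Ncor WT and 295, 280 and 288 in the Smrt WT samples. Thus both genes with the largest mRNA falls in Gps2 LKO had the lower H3K27ac in the Smrt WT samples. The mean at the peak 53.9 kb upstream of Cyp7b1 was 8.16-fold higher in the Ncor WT, while Hsd3b2, at 275 against 172, and Hsd3b3, at 1310 against 1130, were less far apart. The Akr1d1 peaks at 69.1, 140, 151 and 87.4 kb were 3.93-fold, 6.82-fold, 5.02-fold and 2.82-fold higher in the Smrt WT, and the peak 7.53 kb upstream of Cyp17a1 2.94-fold. These peaks, higher in the Smrt WT, were also higher in Ncor LKO. Both comparisons use the same Ncor WT samples as reference, so the match is not independent and nothing is concluded from it. Akr1d1 itself was at 1460 in the Smrt WT against 1070 in the Ncor WT over its first peak. No test was made, as the sets are different lines.

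**Figure D5:**
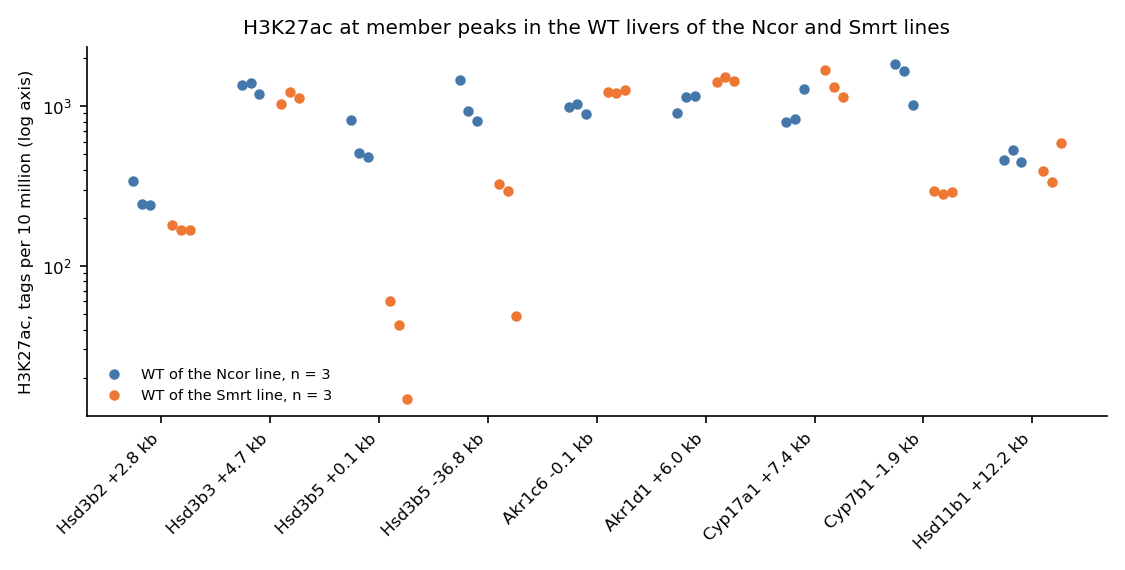
H3K27ac at member peaks in the 3 WT samples of the Ncor set and the 3 of the Smrt set, in tags per 10-million total tags on a log axis, with 1 point per sample, for the peak nearest to each TSS and the one with the most tags. Both Hsd3b5 peaks and the Cyp7b1 peak lie lower in the Smrt WT samples, while the other members differ less or overlap.

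In Ppara KO livers, the PPARα signal at member peaks was compared with the receptor absent. With 2 samples per group, 17 of 75 member peaks were lower and 0 higher (22.7% lower, background 27.6% lower and 0.0174% higher), with a median of -1.71 against -1.68 for all peaks. At 67.2 kb from the Akr1d1 TSS PPARα had 22.7 and 29.8 tags in WT against 2.06 and 1.47 in KO livers (log2 fold change -3.82, adjusted p = 2.74e-05), and 14.4 kb from that of Cyp17a1 it had 20.5 and 21.4 in WT against 2.06 and 1.47 in KO livers (log2 fold change -3.50). Both KO samples were far below both WT samples at these peaks. At the Hsd11b1 TSS the values were 7.79 and 9.94 in WT against 2.75 and 1.47 in KO livers, and 8.03 kb upstream of Cyp7b1 they were 14.9 and 24.5 in WT against 1.37 and 2.2 in KO livers, again with both KO samples below WT. TMM scaling moved the median of all peaks by 1.46 and left 3 member peaks lower, and without WT sample 1 or WT sample 2 there were 0. Several large rises in Gps2 LKO had no counterpart here, with no Akr1d1 peak between 74.6 and 103 kb. There was also none at Akr1c18 or 9.29 kb upstream of Hsd11b1. The WT samples here had 2.14% and 2.44% of tags in peaks, against 19.2% to 21.9% in the Gps2 set. A missing peak is therefore not shown to be an absence of binding. At 151 kb from the Akr1d1 TSS PPARα had 1.42 and 3.06 tags in WT against 2.06 and 1.47 in KO livers (log2 fold change -0.3). At 19.2 kb upstream it had 4.25 and 3.82 against 1.37 and 0 (-2.37), and neither was called. Whether these rises needed the receptor was not tested. Of the 44 PPARα peaks higher in Gps2 LKO, 27 overlapped a peak of the Ppara table and 6 (13.6%) overlapped one that was lower in Ppara KO, close to the 14.1% of all 128 member peaks of that table. Counted the other way, 5 of the 17 peaks lower in Ppara KO (29.4%) overlapped one higher in Gps2 LKO, beside 27 of all 75 member peaks (36%).

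The corepressors were measured in 3 Ppara KO and 3 WT livers. NCOR was lower at 3 and higher at 0 of 128 member peaks (background 2.51% and 0.136%), with a median of -0.29 against -0.32. At the Akr1c18 TSS NCOR had 4.06, 11.2 and 12.6 tags in WT against 3.27, 2.02 and 2.13 in KO livers, all KO samples being lower (log2 fold change -1.88). At Akr1d1 the peak at 67.3 kb had 105, 114 and 115 in WT against 71.1, 80.8 and 50.5 in KO livers (log2 fold change -0.72), and that at 103 kb had 117, 144 and 109 in WT against 109, 79.4 and 50.5 in KO livers, touching the WT range (log2 fold change -0.64). With TMM, with DESeq2 and with the replicate block these counts were 0, and they were 0 without WT sample 3 or KO sample 3 and 1 without any other single library. For GPS2, 0 of 45 member peaks were called by edgeR and 0 by DESeq2 (background 0.273% lower and 0% higher), with 12 lower and 0 higher at an unadjusted p under 0.05, where 23% of all peaks were lower and 0.0251% higher.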

How the data were processed

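RNA-seq of 4 WT and 4 Gps2 LKO livers and 64 ChIP-seq samples of mouse liver were used. The authors deposited a gene count table with exon lengths, and per-comparison tables of raw tag counts over merged peaks with the total tags of each library. Per the study's methods, reads were mapped to mm9 and counted with HISAT2 and HOMER. Per the labels the tools also include Bowtie2, SAMtools and featureCounts, and the builds GRCm38, mm10 and mm9. Gene coordinates in the RNA table were those of GRCm38 for 8 of 9 members, so they were not used, and peak positions are in mm9. The methods give formaldehyde for histone ChIP and the labels also DSG. How reads of near-identical genes or of strands were assigned is not given in the sources used here.

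The members and gene lists were chosen with earlier results of these data known. Counts were tested with edgeR 4.0.16 (quasi-likelihood, limma 3.58.1, R 4.3.3), TMM scaling and the edgeR count filter for RNA, and scaling to total tags for ChIP, with p adjusted by Benjamini-Hochberg over the whole table. Peaks needed at least 1 tag, and in the H3K27ac and H3K4me3 table of Gps2 LKO, calls of that mark in at least 2 libraries. The 3 WT samples of PPARα in the Gps2 set differed by less than the sampling noise (chi-square per degree of freedom 0.926, against 1.40 to 11.8 elsewhere) and were summed and counted as 1 sample. DESeq2 1.42.0 and the alternatives named in the closing section were also run. All 9 members are named. Peaks are named where nearest to the TSS within 1000 bp, highest in tags, or past an adjusted p of 0.05, and other steroid genes past a log2 fold change of 1. Peaks with other values shown, and other genes of the lists, were chosen after their values were seen. Depth was 13194385 to 20086127 counts (RNA) and 7901613 to 46106612 tags (ChIP). Counts were also simulated with the same dispersion of 0.05 for every feature. In these, a log2 fold change of 1 was found for 74% of genes in RNA, 10% of peaks in H3K27ac of Gps2 LKO and 31% in H3K27ac of Ncor LKO. A log2 fold change of 2 was found for 100%, 85% and 98%. The H3K27ac simulation of Gps2 LKO held 85615 peaks, without the filter on calls of the mark. The shares hold for these settings, and the real features differ in their spread. Columns of the authors' own comparisons (fold change, p, FDR and call), the input samples and the per-sample peak files beyond their calls were not used. Sequences came from the mm9 genome. Python 3.11.15, pandas 2.3.3, scipy 1.17.1 and matplotlib 3.10.9 were used.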

Additional observations from a re-analysis of the deposited data

Results flagged for a closer look

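The Akr1d1 H3K27ac peak 69.1 kb from the TSS was singled out because its effect differed between knockouts in a test of the difference itself: the log2 fold change was 1.89 higher in the Ncor than in the Smrt comparison (SE 0.38, adjusted p = 0.0486, edgeR). The Ncor means went from 267 to 951 tags per 10-million and the Smrt means from 1050 to 1010, so the sets start from unlike WT levels. The call was lost with TMM, with the replicate block and in 10 of 12 fits that left out a library. No group of 4 libraries had a member value apart from the rest by Dixon's criterion at the 95% level.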

How the results depend on the processing

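In the RNA data the members' calls held at 3 higher and 4 lower under the alternatives tried, apart from Akr1c6 and Hsd11b1. Akr1c6 was at -0.09 with total count scaling and -0.14 with the length trend removed, and leaving out single livers gave 3 to 4 higher and 4 to 4 lower.

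ChIP counts of called member peaks moved more, and the cause was not tested beyond the shifts in the median given with the results. With TMM, H3K4me3 in Gps2 LKO had 1 lower, NCOR in Gps2 LKO 1 higher and 2 lower, PPARα in Gps2 LKO 7 higher, PPARα in Ncor LKO 7 higher and 2 lower, NCOR in Ppara KO 0 lower, PPARα in Ppara KO 3 lower and the difference between Ncor and Smrt 0. In the PPARα table of Ppara KO, TMM also turned the Hsd3b3 peak at 10.1 kb to 0.05 and the Cyp7b1 peak 3.08 kb upstream to 0.32. With DESeq2, H3K27ac in Gps2 LKO had 4 higher and 2 lower, H3K4me3 0 lower, PPARα in Gps2 LKO 12 higher and 0 lower, GPS2 in Ncor LKO 20 lower, PPARα in Ncor LKO 0 higher, H3K27ac in Ncor LKO 4 lower, NCOR in Ppara KO 0 lower and PPARα in Ppara KO 8 lower. With all peaks of the table, H3K27ac in Gps2 LKO had 5 higher and 2 lower and H3K4me3 0 lower. With the filter on low counts, GPS2 in Ncor LKO had 4 lower and NCOR in Ppara KO 1 lower. With scaling by the median ratio, the 1 against 1 tables had 20 higher and 16 lower for GPS2 and 3 higher for polymerase II. The GPS2 counts rest on 0 to 4 tags per member peak in LKO.

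Samples with the same replicate number did not all deviate together in any comparison with 3 or more pairs, so the numbers were not taken to pair the samples. With the replicate number as a block, the RNA calls were the same (3 higher, 4 lower), H3K27ac in Gps2 LKO had 9 higher and 4 lower, H3K4me3 2 higher, NCOR in Gps2 LKO 1 higher and 2 lower, GPS2 in Ncor LKO 29 lower, PPARα in Ncor LKO 0 higher, H3K27ac in Ncor LKO 4 higher, NCOR in Ppara KO 0 lower, PPARα in Ppara KO 0 lower and the difference between Ncor and Smrt 0. The block could not be fitted for PPARα in Gps2 LKO, where the WT samples were summed.

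Leaving out single libraries gave 0 to 10 higher and 0 to 9 lower for H3K27ac in Gps2 LKO, 1 to 2 higher and 1 to 2 lower for H3K4me3, 0 to 1 higher for NCOR in Gps2 LKO, 24 to 45 higher and 0 to 2 lower for PPARα in Gps2 LKO, 0 to 60 lower for GPS2 in Ncor LKO, 0 to 3 higher and 0 to 4 lower for PPARα in Ncor LKO, 2 to 9 higher and 0 to 4 lower for H3K27ac in Ncor LKO, 0 to 1 lower for NCOR in Ppara KO, 0 to 13 lower for PPARα in Ppara KO, and 0 to 3 higher for the difference. Where a group was left with a single sample, its spread was taken from the remaining groups of the fit. Of 82 called peaks, 10 stayed called under every alternative. With 2 or 3 samples per group a change of log2 1 was seldom found in simulated histone data, so peaks that were not called are not shown to be unchanged.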
